A study of Mus musculus with 6 samples.

Results

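*Atxn1*, its paralog *Atxn1l*, their shared partner *Cic* and 5 further genes named for ataxins (*Atxn2*, *Atxn2l*, *Atxn3*, *Atxn7* and *Atxn10*) were followed in mouse astrocytes after stimulation of the dopamine receptor DRD2. The 8 genes were taken by symbol from tables of 17193 gene identifiers, and all 8 had a value in every library. *Atxn1* was the reason for the choice: it stands among the targets of the antioxidant transcription factor Nrf2 shown by the study, yet its level was lower after the agonist. Its difference between the groups is therefore a description without a test, and nothing rests on it. The other 7 genes were chosen by name and function, with earlier results of the same libraries known, so their tests describe single genes and support no statement on the family.

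The libraries came from brain astrocytes of wild-type C57BL/6 mice aged 3 months, with 3 libraries from mice labelled Mock and 3 from mice given Quinpirole, a DRD2 agonist. All animals carried the wild-type genotype, and all cells were collected with anti-ACSA-2 microbeads, which bind a surface antigen of astrocytes. The dose and duration for these mice are not in the labels. The labels do not say whether each library came from a separate animal, so p-values measure the spread between these libraries, which may be technical.

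Ataxins carry their name because mutations in their human genes cause spinocerebellar ataxias, in which cerebellar neurons degenerate; *Atxn1l* and *Atxn2l* were named for their similarity to the disease genes. In ataxin-1, ataxin-2, ataxin-3 and ataxin-7 the disease allele carries a lengthened run of CAG codons for glutamine, whereas in ataxin-10 a repeat within an intron is expanded. Ataxin-1 and ataxin-1-like bind the DNA-binding repressor Capicua, the product of *Cic*, and stabilise it. Ataxin-2 and ataxin-2-like bind RNA and enter stress granules, ataxin-3 removes ubiquitin from proteins, ataxin-7 anchors the deubiquitinating module of the SAGA coactivator, and ataxin-10 is an armadillo-repeat protein.

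In the 4 genes with a CAG disease repeat, the longest run of glutamine codons anywhere in the mouse coding sequence was short. The run of *Atxn1* covers codons 444 to 446 of 799, and that of *Atxn2* codons 1129 to 1131 of 1286. The runs were not matched to the position of the human disease repeat, so they need not be its mouse counterpart. Capitals mark consecutive glutamine codons (CAG or CAA) in frame, with 4 codons in lower case on each side, read 5′ to 3′ on the coding strand of GRCm38 (GENCODE M21).
*Atxn1*, chr13:45567068-45567100, minus strand: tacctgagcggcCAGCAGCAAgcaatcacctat
*Atxn2*, chr5:121810934-121810966, plus strand: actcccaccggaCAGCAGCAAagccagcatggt
*Atxn3*, chr12:101926551-101932978, minus strand, across an intron: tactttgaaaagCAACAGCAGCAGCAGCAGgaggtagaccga
*Atxn7*, chr14:14013144-14013182, plus strand: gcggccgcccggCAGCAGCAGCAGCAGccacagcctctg
The longest run counted 6 glutamine codons in *Atxn3*, 5 in *Atxn7*, and 3 each in *Atxn1* and *Atxn2*. In the other 4 genes no run was longer than 2 codons. The runs of *Atxn1*, *Atxn2* and *Atxn7* each lay within a single coding exon. Words of 50 bases from the longest coding transcript of each of the 8 genes were searched in the same direction only. None also occurred in a transcript of another gene, so reads of the paralogs could be told apart over that length in that direction.

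The deposited values are FPKM, fragments scaled to transcript length and to the mapped fragments of the library, a level per length that allows genes to be compared. The tables used here hold no counts, and the depth behind the values was estimated at 22300000 to 27400000 fragments per library. All 10 astrocyte markers were present at a mean FPKM of at least 1. Their sum ran from 1489 to 1650 FPKM in Mock and from 1478 to 1508 in Quinpirole. Of these markers, 3 (*Slc1a2*, *Sox9* and *Atp1b2*) were lower in every Quinpirole library than in every Mock library, as were 16.9% of all genes tested. Past the threshold, 2 of the 10 were lower (20.0%, beside 5.18% of all genes tested) and none higher. The neuronal genes *Rbfox3* and *Snap25*, the oligodendrocyte genes *Mog* and *Mobp* and the endothelial gene *Pecam1* had a mean below 0.1 FPKM. Markers of other cells were nevertheless present. The 8 microglial markers, all at a mean of at least 1 FPKM, summed to 352 to 361 FPKM in Mock and 360 to 375 in Quinpirole. Of these, 3 were lower and 2 higher in every Quinpirole library, beside 16.9% lower and 20.0% higher of all genes tested. Past the threshold, 1 of the 8 was higher (12.5%, beside 5.74% of all genes tested) and none lower. The 7 vascular markers, of which 4 reached a mean of 1 FPKM, summed to 2554 to 2723 and 2737 to 2909, most of it from the smooth-muscle actin gene *Acta2*. The higher sum in Quinpirole was that of *Acta2*, whereas *Pdgfrb* (26.2 to 21.2 FPKM on average, past the threshold), *Kdr* (5.80 to 4.96) and *Flt1* (1.31 to 1.04) were lower in every Quinpirole library. The 8 neuronal markers, 4 of them at a mean of at least 1 FPKM, summed to 99.8 to 105 and 108 to 115. *Stmn2* (54.5 to 63.8, past the threshold) and *Tubb3* (18.1 to 21.0) were higher in every Quinpirole library, and *Map2* (25.5 to 23.4) and *Syn1* (3.14 to 2.73) lower. The 9 oligodendrocyte markers, 5 of them at that level, summed to 162 to 181 and 168 to 178, and the 4 ependymal markers, 3 of them at that level, to 135 to 148 and 136 to 143. Their part in the results was not tested.

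Per length, *Atxn10* was the most abundant of the 8 messages and *Atxn3* the least. In Mock libraries the order of mean FPKM was *Atxn10*, *Cic*, *Atxn2*, *Atxn2l*, *Atxn1l*, *Atxn7*, *Atxn1* and *Atxn3*. Neighbours in that order did not overlap between libraries, except *Cic* with *Atxn2* and *Atxn2* with *Atxn2l*. In Quinpirole libraries *Atxn2l* stood just above *Atxn2*, both overlapped their neighbour above, and *Atxn1* and *Atxn3* also overlapped. *Atxn1* was a weakly expressed gene here, with a Mock mean at percentile 22.1. The rank was taken among the Mock means of the 12255 genes whose mean FPKM over all libraries was at least 1. All 8 genes belonged to those 12255.

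**Figure D1:**
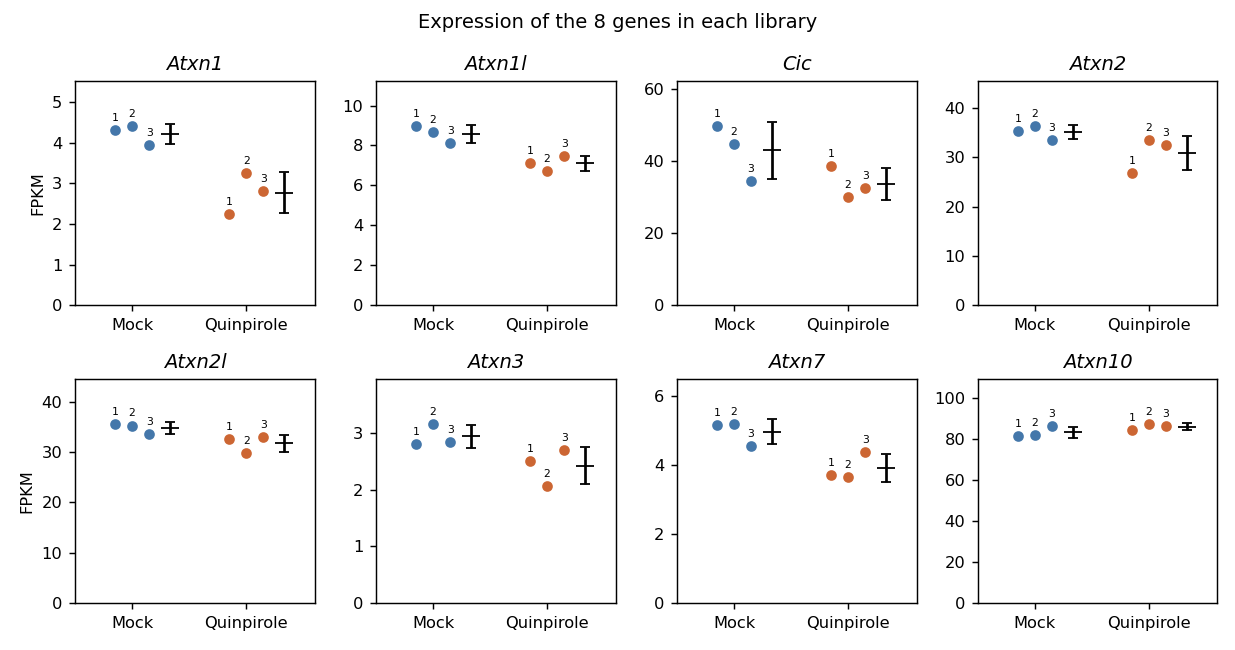
FPKM of the 8 genes in each library, with 1 panel per gene and its own linear axis from 0. Numbered points are the 3 Mock (blue) and 3 Quinpirole (orange) libraries, and the black marks give the group mean ± SD. The Quinpirole points lie below all Mock points for 6 genes and overlap them for *Cic* and *Atxn10*.

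*Atxn1* encodes the corepressor mutated in spinocerebellar ataxia type 1 and lies on the minus strand of GRCm38 at chr13:45549755-45965008, the build of all positions given here. Its level was 4.32, 4.42 and 3.94 FPKM in Mock libraries 1 to 3 and 2.26, 3.26 and 2.81 FPKM in Quinpirole libraries 1 to 3. Every Quinpirole library thus lay below every Mock library, and Quinpirole library 1 was the lowest. The mean was 4.23 ± 0.25 FPKM (SD, n = 3) in Mock and 2.78 ± 0.503 FPKM (SD, n = 3) in Quinpirole, 34.3% lower. On the scale of log2(FPKM + 1), which understates changes of weakly expressed genes, the difference was -0.48 with a standard error of 0.10. These values rest on an estimated 628 to 1279 fragments per library. In these bulk libraries, fewer cells carrying a message and less message per cell cannot be told apart.

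The *Atxn1* transcript is mostly untranslated. Its longest coding transcript has 10569 nucleotides, of which 893 precede the coding sequence, 2373 code and 7303 form the 3′ untranslated region. In that 3′ region, 375 nucleotides, 2.70% of all exonic bases of *Atxn1*, overlap *Gmpr*, a GMP reductase gene on the opposite strand. The counting is not stated to use strand, so reads in this stretch cannot be assigned to either gene. *Gmpr* had 57.4 ± 4.54 FPKM in Mock and 57.0 ± 2.46 FPKM in Quinpirole (SD, n = 3), with a log2 difference of -0.01 and an adjusted p of 0.934 (limma).

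*Atxn1l*, also called Boat, lies at chr8:109726451-109737739 on the minus strand and encodes a protein that shares the AXH domain and the Capicua binding of ataxin-1. It was measured at 8.98, 8.69 and 8.10 FPKM in Mock and at 7.12, 6.72 and 7.47 FPKM in Quinpirole. The groups did not overlap. The mean was 8.59 ± 0.448 against 7.10 ± 0.376 FPKM (SD, n = 3), 17.3% lower. The log2 difference was -0.24 with a standard error of 0.06 and an adjusted p of 0.0486 in limma. Among the 7 genes that the choice did not rest on, *Atxn1l* was the 1 past the threshold of 0.05, where 10.9% of the 12255 genes tested passed, 5.74% higher and 5.18% lower (704 and 635 genes, or 283 higher and 500 lower after quantile normalization). That call was narrow: it held in 4 of 18 alternatives, whose adjusted p ran from 0.0414 to 0.274.

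*Cic*, at chr7:25267704-25294159 on the plus strand, encodes the repressor that both proteins bind. Its level varied widely among Mock libraries, with 49.7, 44.6 and 34.4 FPKM in Mock and 38.6, 29.998 and 32.5 FPKM in Quinpirole. The groups overlapped, since Mock library 3 lay below Quinpirole library 1. The mean was 42.9 ± 7.78 against 33.7 ± 4.40 FPKM (SD, n = 3), and the log2 difference of -0.33 with a standard error of 0.14 did not pass the test (adjusted p = 0.155). Without Mock library 3 the difference was -0.48 and the adjusted p 0.0451 in limma, so that library decided the call.

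The balance between these 3 partners was examined as ratios of their FPKM within each library. *Atxn1* stood at 0.481, 0.509 and 0.487 of *Atxn1l* in Mock and at 0.317, 0.485 and 0.376 in Quinpirole. Quinpirole libraries 1 and 3 lay below Mock, whereas Quinpirole library 2 lay within the Mock range. The ratio of *Cic* to *Atxn1l* was 5.53, 5.13 and 4.25 in Mock and 5.41, 4.46 and 4.35 in Quinpirole, which overlapped. *Cic* to *Atxn1* also overlapped, at 11.5, 10.1 and 8.72 against 17.1, 9.19 and 11.6, with Quinpirole library 1 the highest.

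**Figure D2:**
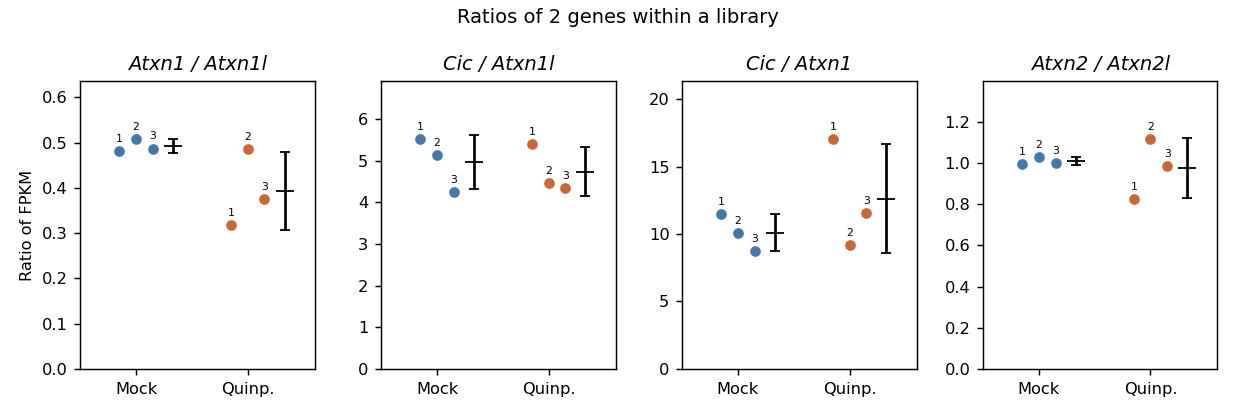
Ratios of FPKM between partner genes in each library, with 1 panel per ratio and its own linear axis from 0. Numbered points are the 3 Mock (blue) and 3 Quinpirole (orange) libraries, and the black marks give the group mean ± SD. The groups overlap in every panel, and Quinpirole library 1 has the lowest ratio of *Atxn1* to *Atxn1l* and of *Atxn2* to *Atxn2l*.

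*Atxn2* and *Atxn2l* encode RNA-binding paralogs. *Atxn2*, at chr5:121711337-121816493 on the plus strand, was measured at 35.5, 36.4 and 33.6 FPKM in Mock and at 26.9, 33.4 and 32.4 FPKM in Quinpirole. All Quinpirole values were below all Mock values, but Quinpirole libraries 2 and 3 lay close to Mock library 3. The log2 difference of -0.19 with a standard error of 0.08 did not pass the test (adjusted p = 0.166), and it was -0.09 without Quinpirole library 1. *Atxn2* shares 99 exonic nucleotides with *Sh2b3* on the opposite strand, none of them in its longest coding transcript.

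*Atxn2l*, at chr7:126491708-126503437 on the minus strand, stood at 35.7, 35.3 and 33.5 FPKM in Mock and at 32.6, 29.9 and 32.97 FPKM in Quinpirole. The groups were apart by less than 1 FPKM. Its log2 difference was -0.13 with a standard error of 0.05 (adjusted p = 0.131). The ratio of *Atxn2* to *Atxn2l* was 0.993, 1.03 and 1.00 in Mock and 0.825, 1.12 and 0.984 in Quinpirole, so the groups overlapped and Quinpirole library 1 was again the lowest.

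*Atxn3*, at chr12:101918901-101958246 on the minus strand, encodes the deubiquitinase of Machado-Joseph disease. It was the least abundant of the 8 genes, at 2.82, 3.17 and 2.84 FPKM in Mock and 2.52, 2.06 and 2.71 FPKM in Quinpirole, from an estimated 280 to 466 fragments per library. The groups did not overlap, although Quinpirole library 3 lay close to Mock library 1. The log2 difference was -0.21 with a standard error of 0.09 (adjusted p = 0.164).

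*Atxn7*, at chr14:13961440-14107302 on the plus strand, encodes the SAGA subunit mutated in an ataxia with retinal degeneration. Its level was 5.17, 5.20 and 4.54 FPKM in Mock and 3.69, 3.64 and 4.37 FPKM in Quinpirole. The groups were apart, with Quinpirole library 3 nearest to Mock. The mean was 4.97 ± 0.372 against 3.90 ± 0.41 FPKM (SD, n = 3), 21.4% lower, and the log2 difference of -0.29 with a standard error of 0.08 missed the threshold (adjusted p = 0.0653).

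*Atxn10*, at chr15:85336245-85463212 on the plus strand, had the only fitted difference above 0 among the 8, which was below 0 in 5 of 18 alternatives (-0.021 after quantile normalization and -0.048 to -0.025 after the length corrections). It was measured at 81.3, 81.5 and 86.3 FPKM in Mock and at 84.0, 87.3 and 86.3 FPKM in Quinpirole. The groups overlapped, and the log2 difference was 0.05 with a standard error of 0.04 (adjusted p = 0.428). Mock library 3 lay within the range of the Quinpirole libraries.

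In 6 of the 8 genes every Quinpirole library lay below every Mock library, a pattern met by 16.9% of the 12255 genes, and in none was every Quinpirole library above, as in 20.0% of all genes. The fitted difference was below 0 in 7 of the 8, against 46.2% of all genes tested. The median log2 difference of the 8 was -0.22, beside 0.02 over all genes. These counts come from the contrast that chose *Atxn1*, and nothing is read from them.

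**Figure D3:**
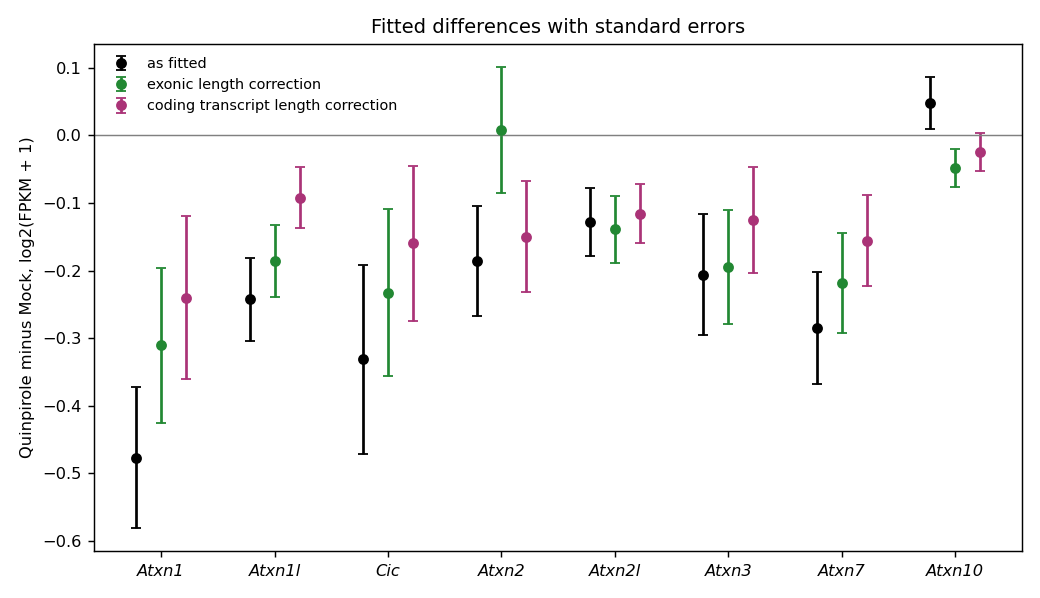
Log2 difference (Quinpirole minus Mock, in log2(FPKM + 1)) of each of the 8 genes, with the standard error, as fitted, after correction for exonic length and after correction for the length of the longest coding transcript. *Atxn1* moves from -0.48 to -0.31 and -0.24, and *Atxn2* from -0.19 to 0.0083 and -0.15.

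Longer genes had lower values in the Quinpirole libraries, and most of the 8 genes are long. Over the 12223 tested genes with an annotated exonic length, the log2 difference decreased with length (Spearman rho = -0.475, across genes of the same 6 libraries, which are not independent replicates). From the shortest to the longest quintile of genes, the median difference was 0.12, 0.06, 0.02, -0.03 and -0.11. Among the longest quintile, 75.1% had a difference below 0, and in 39.3% every Quinpirole library lay below every Mock library. *Atxn1*, *Cic*, *Atxn2* and *Atxn7* belong to that quintile, with exonic lengths of 13914, 10294, 15689 and 7978 nucleotides. *Atxn1l* and *Atxn3* belong to the next longest, *Atxn2l* to the middle quintile and *Atxn10*, with 1937 nucleotides, to the shortest.

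After a correction that removed the trend with exonic length, *Atxn1* had a difference of -0.31, *Cic* -0.23, *Atxn7* -0.22, and *Atxn1l* and *Atxn3* -0.19 each. *Atxn2*, the longest of the 8, moved from -0.19 to 0.0083, and *Atxn10*, the shortest, from 0.05 to -0.05. *Atxn2l*, of middle length, moved from -0.13 to -0.14. The median of the 8 was then -0.19. With the length of the longest coding transcript in place of all exonic bases, the difference of *Atxn1* was -0.24, that of *Atxn1l* -0.09 and the median -0.14. For *Atxn2* the 2 lengths differ most, 15689 exonic nucleotides against 4472 in the longest coding transcript, and its difference with the latter was -0.15. A change in expression that depends on length would be removed with the trend, and the part of the trend in the uncorrected differences was not tested further.

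**Figure D4:**
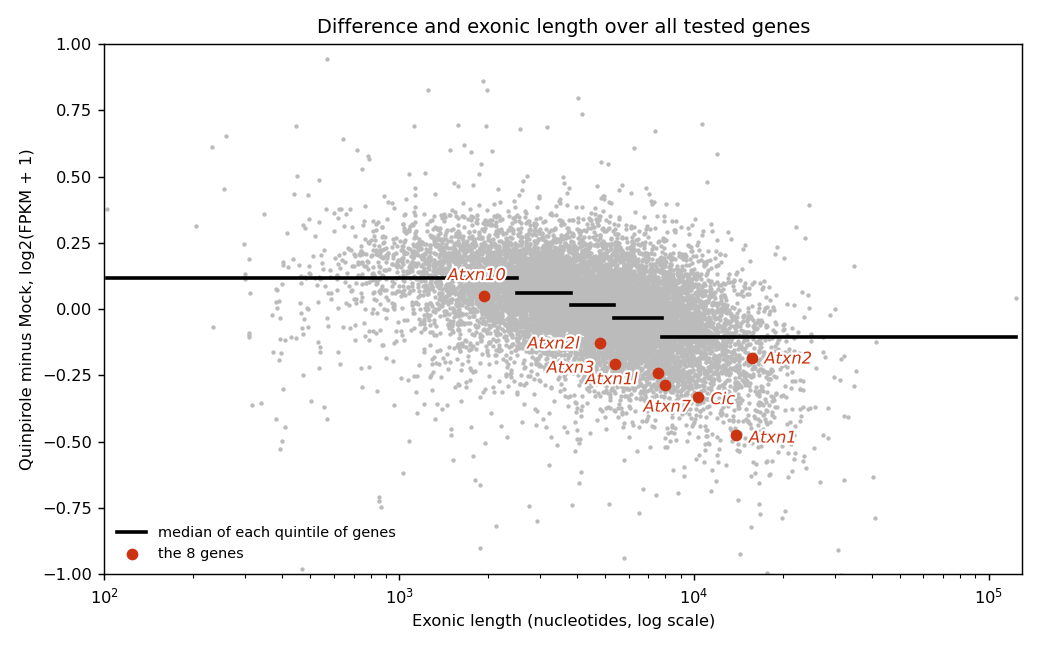
Log2 difference (Quinpirole minus Mock, in log2(FPKM + 1)) against exonic length in nucleotides on a log axis, for all tested genes in grey, with the median of each quintile of genes as a black line and the 8 genes in red. Genes outside the vertical limits are not drawn. The medians step down from 0.12 to -0.11, and all 8 genes lie below the median of their own quintile, *Atxn10* at 0.05 against 0.12. As many genes lie below a median as above it, and the 8 were chosen with this contrast known, so nothing is read from their position.

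Across the 6 libraries, the genes whose log2 level was most like that of *Atxn1* by Pearson's r were *Ccdc88b* (0.990), *Pdzd7* (0.989) and *Fbxl14* (0.985). Among 12254 other genes, 184 had an r over 0.9, which is 1.502%, and 274 had an r under -0.9, which is 2.24%. All share the same 6 libraries and the same difference between the groups. Of the other 7 members, *Atxn2* was the most like *Atxn1*, with an r of 0.92 over the 6 libraries and 0.96 after the group means were removed. Quinpirole library 1 was the lowest for both. *Cic* had an r of 0.50 and *Atxn10* of -0.47.

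The wider pathways of these proteins were read from 7 lists with 136 distinct genes, of which 123 were tested. Of those, 17 passed the threshold, 7 higher and 10 lower, which is 13.8% beside 10.9% of all genes. With the correction for exonic length 9 of the 123 passed, where 4.15% of all genes did. Without Mock library 3, 14 passed, and without any 1 of the other 5 libraries between 0 and 4 did.

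Genes of the ataxin-1 and Capicua complexes showed no common direction. Of 24 tested, 2 rose and 2 fell (8.33% each, beside 5.74% and 5.18% of all genes), and the median log2 difference was 0.01. *Ywhaq*, a 14-3-3 protein, rose from 136 ± 8.08 to 166 ± 3.00 FPKM (SD, n = 3; log2 difference 0.29, adjusted p = 0.0247). *Hdac2*, a histone deacetylase, rose by 0.18 on the log2 scale (adjusted p = 0.0279). *Ncor1*, a nuclear receptor corepressor, went from 41.6 ± 1.53 to 34.9 ± 0.726 FPKM (SD, n = 3; log2 difference -0.25, adjusted p = 0.0249). After the length correction 2 genes of the list were higher and none lower, with *Ncor1* at -0.10.

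Of 19 tested genes listed as Capicua targets, which the repressor holds down in other cells, 3 rose (15.8%) and 1 fell (5.26%). Over all genes tested 5.74% rose and 5.18% fell. The median of the list was 0.05. *Maff*, a small Maf protein of the kind that pairs with Nrf2 on DNA, was measured at 50.5, 52.0 and 49.0 FPKM in Mock and at 57.2, 59.2 and 57.6 FPKM in Quinpirole (log2 difference 0.20, adjusted p = 0.0278). *Vgf*, a secreted neuropeptide precursor, rose by 0.26 (adjusted p = 0.0376), and *Fosl1*, an AP-1 subunit, by 0.32 (adjusted p = 0.0383). *Shc3*, a signalling adaptor, fell by 0.31 on the log2 scale (adjusted p = 0.0262). The best-known targets did not pass: *Etv5* had 70.4 ± 1.19 against 72.7 ± 0.458 FPKM, *Etv4* 6.78 ± 1.72 against 6.92 ± 2.11 and *Dusp6* 73.5 ± 1.55 against 79.8 ± 0.993 (SD, n = 3). These 3 fall outside the rule for named genes and were chosen after their values were seen. After the length correction none of the list was higher and 1, *Shc3*, was lower.

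The RefSeq promoter windows (GRCm38.p6, 250 bases before to 50 after a start site) were searched on both strands for the Nrf2 element TGACNNNGC and the Capicua octamers TGAATGAA and TGAATGGA. Of all 32851 windows, 12.4% held the first and 2.47% either octamer. The 7 members with a window, 10 windows in all, had no match to TGACNNNGC. *Atxn1* was not among the genes with a window. An octamer was found in 1 window of *Atxn2*, at a start site within the gene, and, of the 12 Capicua targets with a window, in *Maff*. Capitals mark the match.
*Atxn2*, chr5:121738310-121738337, plus strand: ttttttatgtTGAATGGAtcacatttta
*Maff*, chr15:79347508-79347535, plus strand: tgggtttttaTGAATGAAaggaatcctg
A second window of *Maff* held the Nrf2 element, as did windows of 2 other listed targets, *Gpr3* and *Il17rd*. A match is a description of letters and not a measured binding site.
*Maff*, chr15:79346499-79346527, plus strand: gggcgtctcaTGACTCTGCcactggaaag

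Among 16 tested genes of ataxin-2 ribonucleoprotein granules, none passed the threshold in limma, with or without a trend in the variance, and 4 had an unadjusted p under 0.05, beside 31.3% of all genes tested. The smallest p belonged to *G3bp1* and *Tia1*. *G3bp1*, the granule scaffold, had 22.1 ± 0.516 FPKM in Mock and 24.6 ± 0.448 in Quinpirole (SD, n = 3; log2 difference 0.15, adjusted p = 0.0525). *Tia1* stood at 10.5, 11.1 and 11.9 FPKM in Mock and at 6.92, 10.1 and 6.59 in Quinpirole (log2 difference -0.48, adjusted p = 0.0669). The spread of *Tia1* within Quinpirole was large. With the length correction *G3bp1* passed, at 0.20.

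Of 18 genes around ataxin-3 and ubiquitin-dependent degradation, 1 rose (5.56%, beside 5.74% of all genes) and none fell (5.18% of all genes). It was *Derl1*, a channel component of endoplasmic reticulum-associated degradation, which went from 32.1 ± 0.307 to 37.1 ± 0.767 FPKM (SD, n = 3; log2 difference 0.20, adjusted p = 0.0251). After the exonic length correction *Derl1* missed the threshold, at 0.15 with an adjusted p of 0.0538. *Rad23b*, a ubiquitin receptor that binds ataxin-3, was then the 1 gene past it, at 0.14 with an adjusted p of 0.0497. The coding length correction reversed this in limma. With it *Derl1* passed, at 0.19 with an adjusted p of 0.0479, and *Rad23b* missed, at 0.12 with an adjusted p of 0.0734. *Rad23b* falls outside the rule for named genes and was chosen after its values were seen.

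The SAGA coactivator, in which ataxin-7 sits, was tested in 25 genes, with a median of -0.03. Of these, 1 rose and 1 fell (4.0% each, beside 5.74% and 5.18% of all genes). *Eny2*, a small subunit of the deubiquitinating module, rose by 0.18 (adjusted p = 0.0467). *Trrap*, the scaffold of SAGA that receives activators, was measured at 21.9, 20.3 and 18.9 FPKM in Mock and at 14.6, 11.998 and 14.5 FPKM in Quinpirole. Its log2 difference was -0.54 with an adjusted p of 0.0236, and -0.29 with an adjusted p of 0.0409 after the length correction. It passed in both fits, but missed the threshold in limma after the coding length correction, at -0.27 with an adjusted p of 0.0510.

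Of 4 partners of ataxin-10, 1 fell (25.0%, beside 5.18% of all genes). *Ogt*, the O-GlcNAc transferase that binds ataxin-10, went from 36.8 ± 1.47 to 29.9 ± 1.87 FPKM (SD, n = 3; log2 difference -0.29, adjusted p = 0.0274). It also passed after the exonic length correction, at -0.23. After the coding length correction it missed the threshold in limma, at -0.21 with an adjusted p of 0.0565.

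Of 27 other genes of ataxias and glutamine repeat diseases, 18 were tested, 5 fell (27.8%) and none rose, with a median of -0.13. Of all genes tested 5.18% were called lower, of the next longest quintile 5.56% and of the longest quintile 16.2%. The genes are long, with a median exonic length of 6951.5 nucleotides, which lies in the next longest quintile (5355 to 7766 nucleotides). *Atn1*, the dentatorubral-pallidoluysian atrophy gene, went from 46.1 ± 2.33 to 36.5 ± 2.57 FPKM (SD, n = 3; log2 difference -0.33, adjusted p = 0.0262). *Htt*, the Huntington disease gene, stood at 8.22, 7.90 and 7.16 FPKM in Mock and at 6.01, 5.27 and 5.98 in Quinpirole (-0.38, adjusted p = 0.0288). *Ccdc88c*, a Dishevelled-binding protein, fell by 0.31 on the log2 scale (adjusted p = 0.0225). *Itpr1*, the calcium release channel (-0.35, adjusted p = 0.0412), and *Cacna1a*, a calcium channel subunit (-0.33, adjusted p = 0.0423), were the other 2. They fall outside the rule for named genes and were chosen after their values were seen. After the length correction 1 of the 5 passed, *Atn1* at -0.34, whereas *Htt* had a difference of -0.11 with an adjusted p of 0.214.

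**Figure D5:**
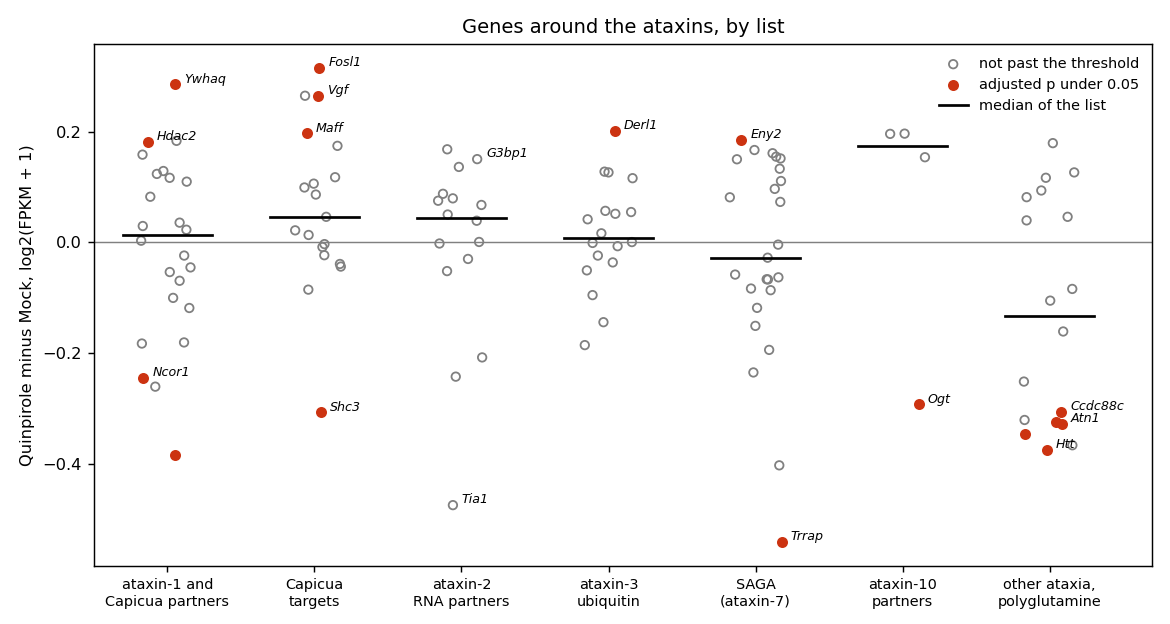
Log2 difference (Quinpirole minus Mock, in log2(FPKM + 1)) of each tested gene in the 7 lists, with genes past the threshold in filled red and a bar at the median of each list. Genes described in the text are labelled, apart from *Itpr1*, *Cacna1a*, *Rad23b*, *Etv4*, *Etv5* and *Dusp6*. The medians lie between -0.13, for the other ataxia genes, and 0.17, for the 4 partners of ataxin-10.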

How the data were processed

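RNA sequencing of 6 astrocyte libraries was analysed. The authors sequenced poly-A-selected mRNA, mapped the reads with TopHat2 to GRCm38 (per the submitters' processing notes) and deposited FPKM values for single genes, 1 table per library; the program behind the FPKM values, the annotation and the use of strand are not given in the sources used here. FPKM values are not counts, so no count test was run. Depth was estimated as the number of fragments for which the low values came closest to whole fragments, and 59.5% to 66.1% of them lay within 0.1 of a whole number, where chance gives 20%; fragments per gene are therefore approximate and the precision of weak genes is limited.

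Symbols were matched for 17090 of 17193 identifiers. The 12255 genes that averaged 1 FPKM or more over the libraries were tested as log2(FPKM + 1) by lmFit and eBayes of limma 3.58.1 (R 4.3.3; trend in the variance; two-sided p adjusted after Benjamini and Hochberg over all genes tested; threshold 0.05), on all 6 libraries by group without covariates. The script was tested on simulated data. Length and GC content were taken from GENCODE M21, which need not be the authors' annotation, and corrected by loess (span 0.3) in each library. The members and lists were chosen with earlier results of these data known. Named genes were the 8 members, per list the genes past the threshold with the smallest p, at most 3 in each direction (or, with none, the 2 with the smallest p), and the 3 genes most like *Atxn1*. Alternatives were no filter on low values or a minimum of 5 FPKM, a pseudocount of 0.1, median ratio scaling, quantile normalization, the corrections, a replicate block, eBayes without trend and the omission of each library. The correction by coding transcript length was added after seeing the data. *Prmt1* was not analysed here, and 1 listed gene past the threshold is counted but not reported by name. Sequences came from GENCODE M21 and, for promoters, RefSeq. Tables and figures were made in Python 3.11.15 (pandas 2.3.3, numpy 2.4.6, matplotlib 3.10.9, scipy 1.17.1).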

Additional observations from a re-analysis of the deposited data

How the results depend on the processing

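Of 124 values of the 7 members other than *Atxn1* under the alternatives, 103 changed neither direction nor call, 14 lost the call (all of them *Atxn1l*), 1 gained it (*Cic* without Mock library 3) and 6 changed direction; the cause was not tested. *Atxn2* was at 0.0083 after the exonic length correction. *Atxn10* (0.048) was at -0.021 after quantile normalization, -0.025 after the coding length correction, -0.048 after the exonic length correction and -0.047 with GC content added, also with a replicate block. *Atxn1* (-0.48) was at -0.31 after the exonic length correction, -0.24 after the coding length correction and -0.32 after the exonic length and GC correction, also with the replicate block. Leaving out 1 library moved it between -0.57 and -0.37, and the median of the 8 genes (-0.22) between -0.27 and -0.20. That median was -0.14 after the coding length correction. With a minimum of 5 FPKM, *Atxn1*, *Atxn3* and *Atxn7* were not tested, so that setting gave no value for them or the median.

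The number of genes past the threshold (1339) was 633 without a filter, 783 after quantile normalization, 509 after the exonic length correction, 188 after the coding length correction, 375 after the exonic length and GC correction and 714 with eBayes without trend. It was 6, 3 and 1182 without Mock libraries 1 to 3 and 11, 25 and 214 without Quinpirole libraries 1 to 3. Among the tested genes of the pathway lists, 17 of 123 passed, against 10 of 135 without a filter, 13 after quantile normalization, 9, 5 and 7 after the corrections in that order, 11 without trend, and 0 to 14 when 1 library was left out (0 without Mock library 1 or 2 or Quinpirole library 1, 1 and 4 without Quinpirole libraries 2 and 3), where 31 to 45 had an unadjusted p under 0.05 (25.2% to 36.6%, beside 23.5% to 31.9% of all genes).

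The replicate numbers gave no sign of pairing. Deviations from the group mean had a mean correlation of -0.05 for the same number (3 values, -0.10 to 0.03). For different numbers the mean was 0.02 (6 values, -0.10 to 0.15). So few values cannot exclude that the libraries were paired. With the replicate block limma called 2 genes, and 0 with the block and the exonic length and GC correction, where 3308 and 2572 genes had an unadjusted p under 0.05. Among the pathway genes it called 0 in both fits, with 36 and 28 at an unadjusted p under 0.05 (29.3% and 22.8%, beside 27.0% and 21.0% of all genes).

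With 3 libraries a group, the differences of *Cic*, *Atxn2*, *Atxn2l*, *Atxn3*, *Atxn7* and *Atxn10* did not pass the threshold. The smallest detectable difference was not estimated. The depth is an estimate of at most 27400000 fragments, and *Atxn3* and *Atxn1* rest on the fewest fragments per unit of transcript length.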
